A study of Mus musculus with 18 samples.

Results

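The TNF superfamily genes described here are 9 genes that cover 3 roles: the ligands Tnf, Tnfsf9, Tnfsf10 and Tnfsf15, the receptors Tnfrsf1a, Tnfrsf1b and Fas, and the adaptors Traf1 and Traf2. They were chosen by gene name, with earlier results of these data known. Each has 1 row in the count table of 20615 genes, and all 9 were among the 15789 genes with enough counts to be tested. RNA was sequenced from 18 samples of bone marrow-derived macrophages (BMDMs), which are macrophages grown from bone marrow cells for 7 days with M-CSF from L929 cell supernatant. The marrow came from female mice of 7 to 12 weeks, either C57BL/6 (B6) or C57BL/6.NOD-Aec1Aec2 (SjSS), a model of Sjögren's syndrome that is B6 apart from the Idd3 (Aec1) and Idd5 (Aec2) intervals, which come from the NOD mouse. There were 3 samples in each of 6 groups: BMDMs of each strain left untreated (control), given apoptotic cells (AC treated) or given 1 µM CpG for 6 h (CpG treated). CpG is an oligonucleotide that stimulates Toll-like receptors. The ACs were thymocytes killed with dexamethasone, given at 5 per BMDM for 2 h and washed off, with a further incubation of 3 h by the labels and 4 h by the study's methods. The labels do not say which strain the thymocytes came from, or whether control, AC and CpG samples came from the same mice. The study states that BMDMs were grown from 3 mice of each strain and then left untreated or treated. The main fit took the 18 samples as independent. P values therefore measure the spread between these samples. Because the ACs and CpG were given for different times, their responses are set side by side and were not tested against each other.

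TNF superfamily ligands are trimeric proteins that cluster their receptors on the surface of the responding cell. Receptors with a death domain, such as TNFR1 and Fas, can assemble complexes that activate caspase 8, whereas receptors such as TNFR2 bind TRAF adaptors directly and lead to NF-κB and MAP kinase signaling. Macrophages are a main source of TNF after Toll-like receptor stimulation, and they also clear dying cells from tissues.

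The totals over all genes ran from 30688336 to 57139662 estimated counts per sample, and all samples were scaled by TMM factors. These factors were 0.83 to 0.84 in AC treated SjSS samples, the lowest of the 6 groups, and 1.10 to 1.13 in control SjSS samples, the highest. All 8 macrophage markers were present in all groups, and their summed level, in CPM (counts per 1e+06 of the scaled library total), lay between 15105 and 23748. Lyz2 was the largest part of this sum, with group means of 8729 to 12472 CPM, and single markers moved between groups. With ACs the mean of Fcgr1 went from 111 to 317 CPM in SjSS and from 128 to 138 in B6. That of Csf1r went from 2370 to 2231 CPM in SjSS and from 2532 to 1743 in B6. The 17 thymocyte markers summed to 15.1 to 19.4 CPM in AC treated SjSS samples, 5.56 to 6.80 in AC treated B6, 10.9 to 12.7 in control SjSS and 8.61 to 10.7 in control B6. Cd4 made up most of these sums, with means of 14.0 CPM in AC treated SjSS and 3.57 in AC treated B6, and without Cd4, a split made after its values were seen, the other 16 markers summed to 2.29 to 2.95 and 2.20 to 3.25 CPM. In control samples the same 16 markers summed to 1.06 to 1.81 CPM in SjSS and 0.881 to 1.19 CPM in B6. Their sums were thus higher in AC treated than in control samples of both strains, without overlap, but single markers differed between the strains. Rag1 and Dntt had means of 0.163 and 0.123 CPM in AC treated B6 but 0.023 and 0.007 in AC treated SjSS. Lck and Cd5 had means of 0.264 and 0.712 CPM in AC treated B6 and 0.651 and 0.803 in AC treated SjSS. In control SjSS the means of Rag1, Dntt, Lck and Cd5 were 0, 0.012, 0.155 and 0.467 CPM. Trac and the CD3 genes Cd3d, Cd3e and Cd3g had between 0 and 17 counts over the 3 samples of any group. Sums of B cell and NK cell markers were at most 1.12 CPM and S100a8, the 1 neutrophil marker of 4 in the table, was at most 11.1 CPM in CpG treated B6, while the 4 dendritic cell markers summed to 2.36 to 3.30 CPM in AC treated SjSS and at most 1.57 CPM elsewhere. Xcr1 made up most of the dendritic cell sum in AC treated SjSS, with a mean of 2.13 CPM against 0.279 in control SjSS. The mean of Zbtb46 was 0.515 CPM in AC treated SjSS and 0.654 in AC treated B6, and Flt3 and Siglech had means of 0.079 and 0.040 in AC treated SjSS. The part of the cells these lists mark in the AC results below was not tested.

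Of the 9 members, 8 had a promoter window in RefSeq (build GRCm38.p6, of 250 bases before to 50 after the start site), and the windows were searched on both strands for 3 motifs bound by factors of inflammation. None of the 8 windows held the κB consensus, which 4.51% of all 32851 windows hold. The core of the interferon response element (ISRE; TTTC, any 2 bases, then TTTC) was found in Tnfrsf1b, against 3.44% of all windows. The STAT site GAS (TTCNNNGAA), which reads alike on both strands, was found in Tnfrsf1a, Tnfrsf1b and Fas, against 8.30% of all windows. Tnfsf9 had no window in the table. A match says only that these letters are there, and the lack of a match says nothing about sites outside the window. The stretches upstream of the start site are printed for Tnf, Tnfsf10 and Tnfsf15, whose AC responses differed most between the strains, and for Tnfrsf1b and Fas, which held matches, with the matched bases in capitals. The window of Tnfrsf1a begins in an annotated exon and is not printed, and the stretches of Tnfsf10 and Tnfsf15 end where an annotated exon begins. All read 5′ to 3′ on the strand of the gene:
Tnf (chr17:35202008-35202257, minus strand): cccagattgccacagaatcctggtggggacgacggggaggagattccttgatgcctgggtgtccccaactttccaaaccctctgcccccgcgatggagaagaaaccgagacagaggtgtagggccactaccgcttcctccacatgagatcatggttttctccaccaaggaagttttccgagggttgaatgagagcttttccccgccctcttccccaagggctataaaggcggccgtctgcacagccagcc
Tnfsf10 (chr3:27316827-27317027, plus strand): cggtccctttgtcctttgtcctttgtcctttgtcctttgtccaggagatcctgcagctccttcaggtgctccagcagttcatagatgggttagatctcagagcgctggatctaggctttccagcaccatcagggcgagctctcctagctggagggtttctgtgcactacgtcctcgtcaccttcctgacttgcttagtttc
Tnfsf15 (chr4:63745114-63745309, minus strand): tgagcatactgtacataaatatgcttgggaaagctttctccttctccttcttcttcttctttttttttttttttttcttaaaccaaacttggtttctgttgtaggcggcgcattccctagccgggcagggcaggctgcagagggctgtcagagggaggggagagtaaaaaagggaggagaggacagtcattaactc
Tnfrsf1b (chr4:145246871-145247120, minus strand): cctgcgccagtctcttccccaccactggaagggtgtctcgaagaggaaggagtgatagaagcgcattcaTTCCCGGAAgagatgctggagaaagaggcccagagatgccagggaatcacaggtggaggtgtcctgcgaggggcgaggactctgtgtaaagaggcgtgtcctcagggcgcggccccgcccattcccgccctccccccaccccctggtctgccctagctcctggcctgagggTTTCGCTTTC
Fas (chr19:34290409-34290658, plus strand): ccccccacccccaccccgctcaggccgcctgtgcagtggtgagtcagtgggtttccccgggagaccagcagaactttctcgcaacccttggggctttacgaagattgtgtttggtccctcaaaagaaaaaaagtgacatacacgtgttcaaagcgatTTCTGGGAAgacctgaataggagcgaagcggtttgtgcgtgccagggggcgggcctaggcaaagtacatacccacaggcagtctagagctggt

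In these sequences Tnfrsf1b has the GAS match at −181 and the ISRE core at −10 from the start site, the last bases before it, and Fas has its GAS match at −93, while the stretches of Tnf, Tnfsf10 and Tnfsf15 have no match to any of the 3 motifs. The members lie on 6 chromosomes, by the coordinates of the deposited table (mm10). Tnf (chr17:35199381-35202007, minus strand) and Tnfsf9 (chr17:57105385-57107757, plus) share chromosome 17, Tnfsf15 (chr4:63727084-63745113, minus) and Tnfrsf1b (chr4:145213463-145246870, minus) share chromosome 4, and Traf1 (chr2:34941750-34961772, minus) and Traf2 (chr2:25517982-25546940, minus) share chromosome 2. Tnfsf10 (chr3:27317028-27342427, plus), Tnfrsf1a (chr6:125349362-125362484, plus) and Fas (chr19:34290659-34327770, plus) are the others. All are protein coding genes. Tnfsf10 is on chromosome 3, which also carries the Idd3 interval. The limits of that interval are not given in the sources used here, and whether the gene lies within it was not determined.

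The first question of the design is how BMDMs of each strain respond to ACs. In SjSS BMDMs all 9 members rose after ACs, where 28.6% of all tested genes did. A rise of more than 1.3 on the log2 scale was seen in 8 (7.09% of all genes). That threshold for a called gene is from the study's methods, while a figure legend of the study gives 1.3 as a fold change. The largest increases were those of the death ligand Tnfsf10, 140-fold, and of Tnfsf15, 109-fold. In B6 BMDMs 8 of the 9 rose (20.0% of all genes) and 5 were called (2.43%), with Traf1, at 10.2-fold, the largest. The strains differed in the size of the AC response for all 9 members, always with the larger response in SjSS (19.6% of all genes). However, the difference of Tnfrsf1b did not pass the test with another scaling of the libraries. In cultures sequenced whole, a change in the share of responding cells and a change in RNA per cell cannot be told apart.

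**Figure D1:**
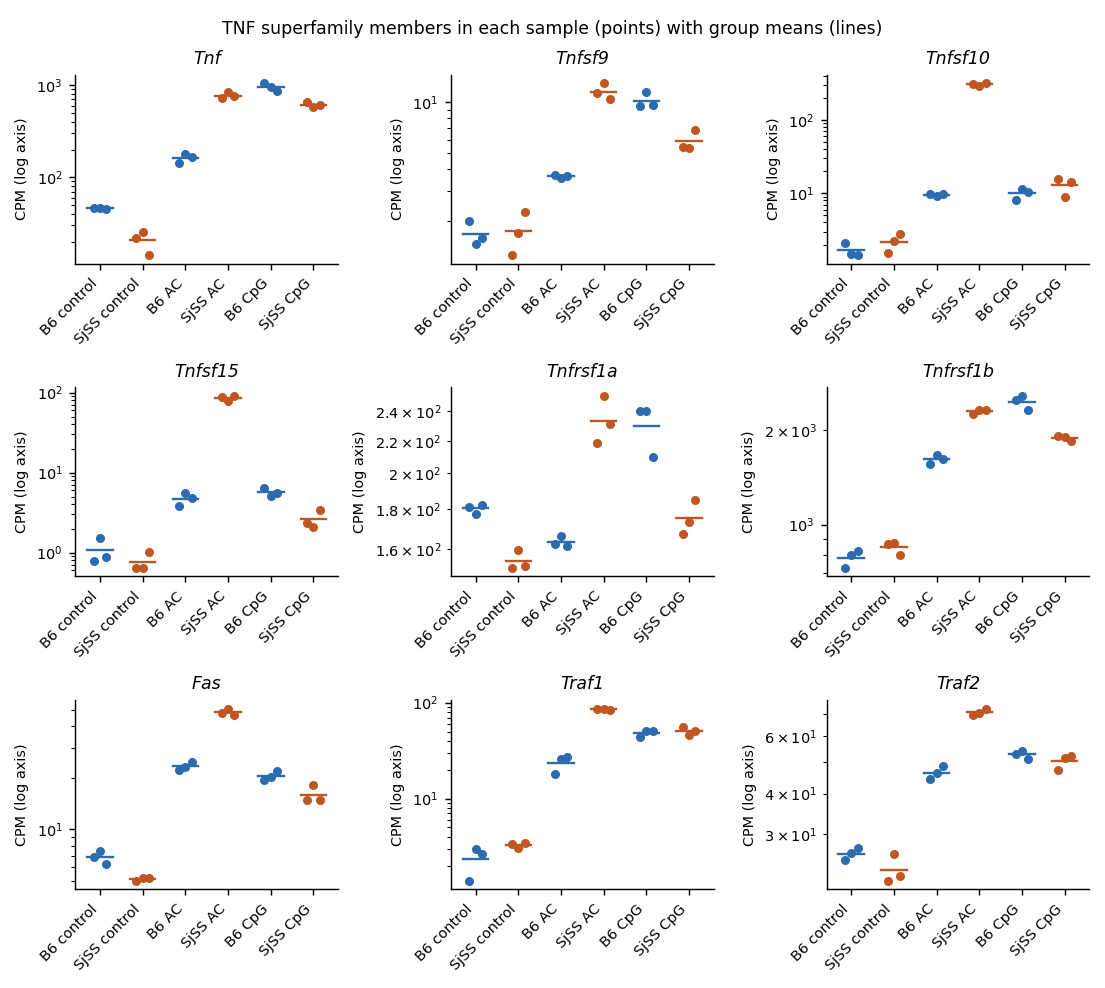
Level of each gene in CPM (log axis that differs between panels) in each of the 18 samples, with B6 in blue, SjSS in orange and the group mean as a line. AC treated SjSS samples hold the highest levels of Tnfsf10, at 293 to 319 CPM, and of Tnfsf15, at 79.6 to 90.9 CPM, while the Tnf levels of CpG treated B6, at 872 to 1051 CPM, lie above all others.

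Of the ligands, Tnf encodes TNF, the founding cytokine of the family, which is cleaved from the cell surface by ADAM17. Its level in control B6 samples was 46.5, 45.9 and 45.5 CPM and in AC treated B6 samples 144, 179 and 167 CPM. In control SjSS samples it was 21.8, 25.7 and 14.3 CPM, and in AC treated SjSS samples 722, 835 and 757 CPM. SjSS BMDMs thus started below all B6 samples without treatment and lay above all of them after ACs. ACs changed it by a log2 fold change of 1.83 ± 0.14 (SE, adjusted p = 5.2e-09) in B6 and 5.24 ± 0.16 (adjusted p = 2.3e-15) in SjSS. The responses differed by 3.41 ± 0.19 (adjusted p = 1.6e-10). With CpG, Tnf stood at 1051, 944 and 872 CPM in B6 and at 657, 583 and 606 CPM in SjSS, which puts the strains in the opposite order to that with ACs, with no overlap of the samples. Across the 6 groups the order was CpG treated B6, AC treated SjSS, CpG treated SjSS, AC treated B6, control B6 and control SjSS, and no 2 neighbors in that order overlapped.

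Tnfsf10 encodes TRAIL, a ligand of death receptors that is known as an interferon-induced gene. It was near the lower end of the counts without treatment, at 2.13, 1.48 and 1.44 CPM in B6 and 1.55, 2.22 and 2.79 CPM in SjSS. After ACs it reached 9.73, 9.04 and 9.65 CPM in B6 and 307, 293 and 319 CPM in SjSS. The AC treated SjSS samples stood alone, since no sample of the 5 other groups was above 15.5 CPM. On the log2 scale the increase was 2.48 ± 0.21 (adjusted p = 3.6e-08) in B6 and 7.13 ± 0.21 (adjusted p = 1.8e-15) in SjSS, which was the 34th largest among all genes tested. The responses differed by 4.66 ± 0.32 (adjusted p = 1.4e-09). CpG gave 8.10, 11.4 and 10.5 CPM in B6 and 15.5, 8.82 and 14.4 CPM in SjSS. These overlapped, and in the order of groups CpG treated SjSS, CpG treated B6 and AC treated B6 could not be separated by their samples.

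Tnfsf15 encodes TL1A, the ligand of death receptor 3 on lymphocytes. Control samples had 0.785, 1.54 and 0.870 CPM in B6 and 0.645, 0.651 and 1.02 CPM in SjSS. After ACs the level was 3.81, 5.51 and 4.88 CPM in B6 and 87.8, 79.6 and 90.9 CPM in SjSS. As with Tnfsf10, the AC treated SjSS samples were far from all others. The log2 fold change was 2.18 ± 0.22 (adjusted p = 2.7e-07) in B6 and 6.77 ± 0.22 (adjusted p = 6.0e-15) in SjSS, a difference of 4.59 ± 0.34 (adjusted p = 4.2e-09). With CpG the order of the strains was reversed, at 6.41, 5.03 and 5.56 CPM in B6 and 2.34, 2.08 and 3.43 CPM in SjSS, without overlap.

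Tnfsf9 encodes the 4-1BB ligand, a co-stimulator of T cells. It rose from 1.99, 1.46 and 1.58 CPM to 3.69, 3.58 and 3.65 CPM after ACs in B6, and from 1.25, 1.69 and 2.25 CPM to 11.3, 12.9 and 10.3 CPM in SjSS. Control samples of the strains overlapped and AC treated samples did not. The log2 fold change was 1.11 ± 0.18 (adjusted p = 5.6e-05) in B6 and 2.73 ± 0.17 (adjusted p = 8.8e-11) in SjSS, a difference of 1.62 ± 0.25 (adjusted p = 4.0e-05). CpG treated samples held 9.49, 11.4 and 9.63 CPM in B6 and 5.42, 5.34 and 6.87 CPM in SjSS. The antisense gene Gm11110 overlaps Tnfsf9 on the opposite strand and had means of at most 1.12 CPM in any group. Whether counting used strand is not given in the sources used here, so that reads in the shared part may belong to either gene.

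**Figure D2:**
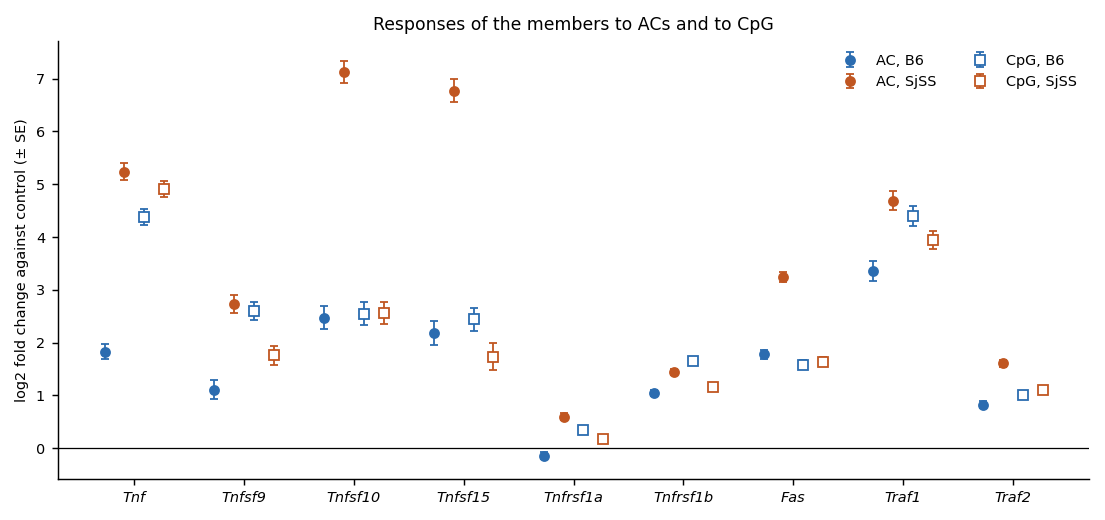
Log2 fold change of each gene against control samples of the same strain, with its standard error, for ACs (filled circles) and CpG (open squares) in B6 (blue) and SjSS (orange). The AC response of SjSS lies above that of B6 for all 9 genes, with the widest gaps in Tnfsf10 (7.13 against 2.48) and Tnfsf15 (6.77 against 2.18).

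Of the receptors, Tnfrsf1a encodes TNFR1, the death domain receptor for TNF that most cells carry. It moved least of the 9. Control B6 samples had 181, 178 and 182 CPM and AC treated B6 samples 163, 167 and 161 CPM, a log2 fold change of −0.14 ± 0.06 that did not pass the test (adjusted p = 0.0723) although the samples did not overlap. It passed, as a decrease, with the replicate number as a block (−0.14, adjusted p = 0.0488), in a fit of the compared groups only (−0.15, adjusted p = 0.0198) and with library totals alone (−0.21, adjusted p = 0.00534). In SjSS it rose from 151, 160 and 152 CPM to 218, 251 and 231 CPM, with a log2 fold change of 0.60 ± 0.06 (adjusted p = 7.2e-08). The responses differed by 0.74 ± 0.09 (adjusted p = 1.4e-06). CpG raised it in B6 to 240, 240 and 210 CPM (log2 fold change 0.35 ± 0.06, adjusted p = 5.3e-05) and in SjSS to 167, 173 and 185 CPM (0.18 ± 0.06, adjusted p = 0.0159). The rise in CpG treated SjSS BMDMs no longer passed the test without control replicate 1 (adjusted p = 0.0543) or without CpG replicate 3 (adjusted p = 0.0904) of SjSS. Nor did it pass with library totals alone in place of TMM factors (0.05, adjusted p = 0.445).

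Tnfrsf1b encodes TNFR2, the receptor without a death domain that recruits TRAF2 directly. It was the most abundant of the members per length of exon in all 6 groups. It rose after ACs from 728, 802 and 822 CPM to 1556, 1667 and 1619 CPM in B6, and from 867, 872 and 801 CPM to 2251, 2314 and 2325 CPM in SjSS. The control samples of the strains overlapped. Its log2 fold change was 1.04 ± 0.06 (adjusted p = 1.2e-10) in B6 and 1.44 ± 0.06 (adjusted p = 1.4e-13) in SjSS, and the difference of 0.40 ± 0.08 (adjusted p = 8.1e-04) was the smallest of the 9. With library totals alone, a setting chosen after the low TMM factors of AC treated SjSS samples were seen, this difference was 0.06 (adjusted p = 0.548), while the median difference over all genes shifted by −0.34. CpG gave 2500, 2569 and 2315 CPM in B6 and 1913, 1907 and 1843 CPM in SjSS.

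Fas encodes the receptor of Fas ligand, the best known trigger of receptor-mediated apoptosis. Its level was 6.89, 7.43 and 6.27 CPM in control B6 and 22.3, 23.3 and 24.8 CPM in AC treated B6 samples. In SjSS it was 5.01, 5.18 and 5.17 CPM in control and 48.0, 50.5 and 46.5 CPM in AC treated samples. No 2 neighbors among the 6 groups overlapped for Fas, and SjSS lay below B6 without treatment and above it after ACs. On the log2 scale the rise was 1.78 ± 0.09 (adjusted p = 2.2e-11) in B6 and 3.24 ± 0.09 (adjusted p = 8.7e-16) in SjSS, a difference of 1.46 ± 0.12 (adjusted p = 2.0e-08). CpG gave 19.4, 20.2 and 22.0 CPM in B6 and 14.8, 18.1 and 14.9 CPM in SjSS without overlap.

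Of the adaptors, Traf1 encodes a TRAF without a RING domain and is a well-known target of NF-κB. It rose from 1.39, 2.96 and 2.65 CPM to 17.9, 25.8 and 27.0 CPM after ACs in B6 and from 3.33, 3.08 and 3.41 CPM to 86.2, 85.6 and 82.9 CPM in SjSS. The log2 fold change was 3.36 ± 0.18 (adjusted p = 8.6e-11) in B6, the largest of the 9 in that strain, and 4.69 ± 0.18 (adjusted p = 6.0e-14) in SjSS. The responses differed by 1.33 ± 0.26 (adjusted p = 4.7e-04), just over the threshold of a called gene, and by 1.13 to 1.62 with single samples left out. CpG gave 44.1, 51.0 and 50.4 CPM in B6 and 55.2, 45.8 and 51.0 CPM in SjSS, which overlapped. Traf1 was thus among the members on which the strains differed with ACs and could not be separated with CpG.

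Traf2 encodes the adaptor that TNFR2 binds directly and TNFR1 binds through TRADD, and it recruits the ubiquitin ligases cIAP1 and cIAP2. Its level was 25.0, 26.3 and 27.2 CPM in control B6 and 44.4, 46.1 and 48.6 CPM in AC treated B6 samples. In SjSS it was 21.6, 26.1 and 22.3 CPM in control and 69.9, 70.9 and 72.8 CPM in AC treated samples. The AC treated SjSS samples were again the highest of all groups. The log2 fold change was 0.83 ± 0.07 (adjusted p = 1.1e-08) in B6 and 1.61 ± 0.07 (adjusted p = 1.4e-13) in SjSS, a difference of 0.79 ± 0.09 (adjusted p = 1.7e-06). CpG gave 52.8, 54.2 and 51.2 CPM in B6 and 47.4, 51.3 and 52.1 CPM in SjSS, with overlap. The overlapping antisense gene Gm13433 had at most 7 counts over any group.

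The shares of all genes stand beside the members' counts in what follows. Because the members were chosen with earlier results of these data known, the shares are a description and no test of the members as a set. In B6, 8 of 9 passed the test (a Benjamini-Hochberg adjusted p under 0.05) with a higher level after ACs, where 20.0% of all tested genes were higher and 18.3% lower, and 5 of 9 were called higher, where 2.43% of all genes were. Tnfrsf1a was the other member, with the lower level described above. In SjSS, 9 of 9 passed, where 28.6% of all genes were higher and 29.4% lower, and 8 were called (6 with library totals alone), where 7.09% were. For the difference between the strains in the AC response, 9 of 9 passed with a larger response in SjSS (19.6% of all genes, with 18.3% in the other direction), and 6 were called (4.76%). Their median difference was 1.46 on the log2 scale, against −0.01 over all genes. With library totals alone 3 members were called, Tnf, Tnfsf10 and Tnfsf15, and of the 9 differences that of Tnfrsf1b did not pass. Without control replicate 2 or 3 of B6, AC replicate 1 of B6 or control replicate 2 of SjSS, 5 members were called.

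The second question is how both strains respond to CpG, the alternate inflammatory stimulus. All 9 members rose in both strains, by a median log2 fold change of 2.45 in B6 and 1.74 in SjSS. The largest responses were those of Tnf, at 4.38 ± 0.15 (adjusted p = 1.9e-14) in B6 and 4.91 ± 0.16 (adjusted p = 9.1e-15) in SjSS, and of Traf1, at 4.40 ± 0.18 (adjusted p = 2.6e-13) and 3.94 ± 0.18 (adjusted p = 1.1e-12). In B6, where 28.1% of all genes were higher and 29.8% lower after CpG, 7 members were called (5.86% of all genes), all but Tnfrsf1a and Traf2. In SjSS, where 27.8% were higher and 26.4% lower, 6 were called (4.81%), since the response of Tnfrsf1b was 1.65 ± 0.06 in B6 and 1.16 ± 0.06 in SjSS. The other ligands rose by 2.59 (Tnfsf9), 2.55 (Tnfsf10) and 2.45 (Tnfsf15) in B6 and by 1.76, 2.57 and 1.74 in SjSS, and Fas by 1.58 and 1.64, all on the log2 scale.

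For the difference between the strains in the CpG response, of the 9 members only Tnfrsf1b passed the test of that difference, with a response smaller in SjSS by 0.49 on the log2 scale (−0.49 ± 0.08, adjusted p = 0.00142). It was 1 of 9, where 2.62% of all genes passed in that direction, and no member was called (0.614% of all genes in either direction). For the other 8 the 95% intervals leave room for differences. That of Tnf ran from 0.14 to 0.93 (adjusted p = 0.109), that of Tnfsf9 from −1.35 to −0.32 (adjusted p = 0.0532) and that of Tnfsf10 from −0.65 to 0.69 (adjusted p = 0.985). Tnfsf9 also passed with DESeq2's test (adjusted p = 0.0126) and in the fit with the replicate number as a block (adjusted p = 0.0453), and Tnf passed without control replicate 2 of SjSS (0.71, adjusted p = 0.0248).

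The remaining comparisons set the strains against each other at each treatment. Without treatment, 3 members were lower in SjSS BMDMs: Tnf by a log2 fold change of −1.17 ± 0.14 (adjusted p = 1.2e-05), Fas by −0.42 ± 0.09 (adjusted p = 0.00349) and Tnfrsf1a by −0.22 ± 0.06 (adjusted p = 0.0137). Of all genes 10.6% were lower, and no member was called (2.01% of all genes in either direction). The others did not pass, and their intervals were widest for the ligands at low level, from −0.18 to 0.90 for Tnfsf10 and from −1.01 to 0.20 for Tnfsf15. Traf1, at 0.52 ± 0.21 (adjusted p = 0.0949), was higher in every SjSS sample than in any B6 sample.

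With ACs all 9 members were higher in SjSS, where 24.0% of all genes were higher and 25.5% lower. The 5 called members (6.24% of all genes) were Tnfsf10, with 32.4 times the level in B6 (log2 fold change 5.02 ± 0.18, adjusted p = 8.1e-14), Tnfsf15 with 18.2 times (4.18 ± 0.18, adjusted p = 7.2e-13), Tnf with 4.72 times (2.24 ± 0.14, adjusted p = 9.6e-11), Traf1 with 3.61 times (1.85 ± 0.15, adjusted p = 5.3e-09) and Tnfsf9 with 3.16 times (1.66 ± 0.16, adjusted p = 7.2e-08). Fas was 2.06 times as high, and Traf2, Tnfrsf1a and Tnfrsf1b were 1.54, 1.43 and 1.42 times as high. Of the 9 members, all 4 ligands were thus called and none of the 3 receptors was. Among the other genes of the family, 3 of 10 tested ligands and 1 of 19 tested receptors (Cd40, by 3.85) were called higher. With CpG the sign turned for most members: Tnfsf15 (−1.12 ± 0.20, adjusted p = 5.1e-04), Tnfsf9 (−0.79 ± 0.16, adjusted p = 0.00132), Tnf (−0.63 ± 0.13, adjusted p = 0.00183), Tnfrsf1a (−0.39 ± 0.06, adjusted p = 1.2e-04), Tnfrsf1b (−0.38 ± 0.06, adjusted p = 1.1e-04) and Fas (−0.37 ± 0.08, adjusted p = 0.00389) were lower in SjSS. These 6 of 9 stand against 9.57% of all genes that were lower, and no member was called (2.61% in either direction). Tnfsf10, Traf1 and Traf2 did not pass, with log2 differences of 0.38, 0.06 and −0.07.

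**Figure D3:**
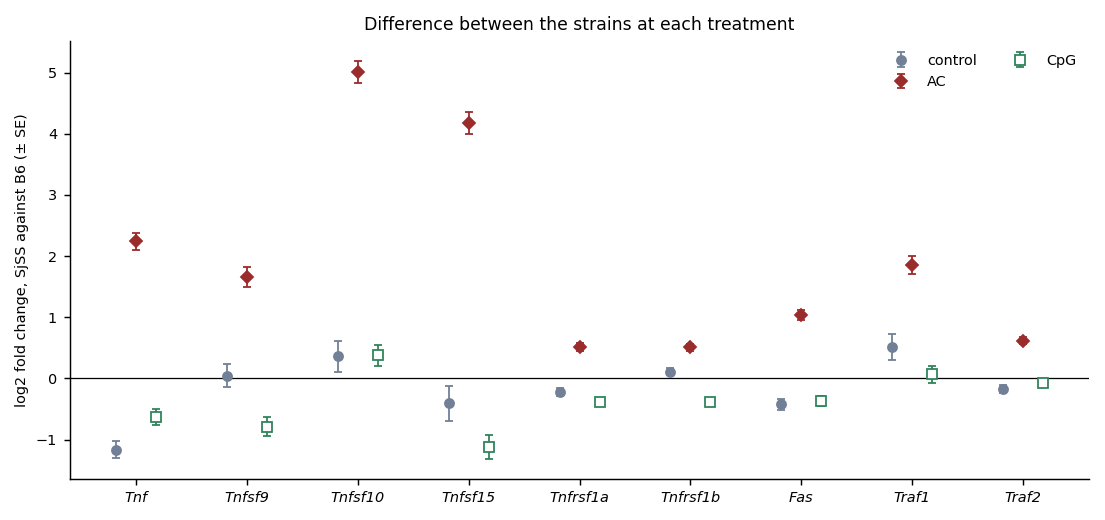
Log2 fold change between SjSS and B6 BMDMs, with its standard error, in control (grey circles), AC treated (red diamonds) and CpG treated samples (green squares). All 9 genes lie above 0 with ACs, from 0.51 (Tnfrsf1b and Tnfrsf1a) to 5.02 (Tnfsf10), whereas with CpG 7 lie below 0.

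Per kilobase of exon, a scale on which genes can be compared with each other, Tnfrsf1b was the most abundant member in every group, from 205 CPM per kb in control B6 to 645 in CpG treated B6. Its level was above that of TNFR1 throughout, whose gene Tnfrsf1a ranged from 61.3 to 92.7 CPM per kb. Tnf moved from 28.0 CPM per kb in control B6 and 12.6 in control SjSS to 583 in CpG treated B6 and 471 in AC treated SjSS. Tnfsf10 and Tnfsf15 were the lowest members in control samples, at 0.230 to 0.415 CPM per kb. In AC treated SjSS samples Tnfsf10, at 58.2, and Tnfsf15, at 25.7, lay above Fas (23.4), Traf2 (23.2), Traf1 (17.1) and Tnfsf9 (8.93).

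**Figure D4:**
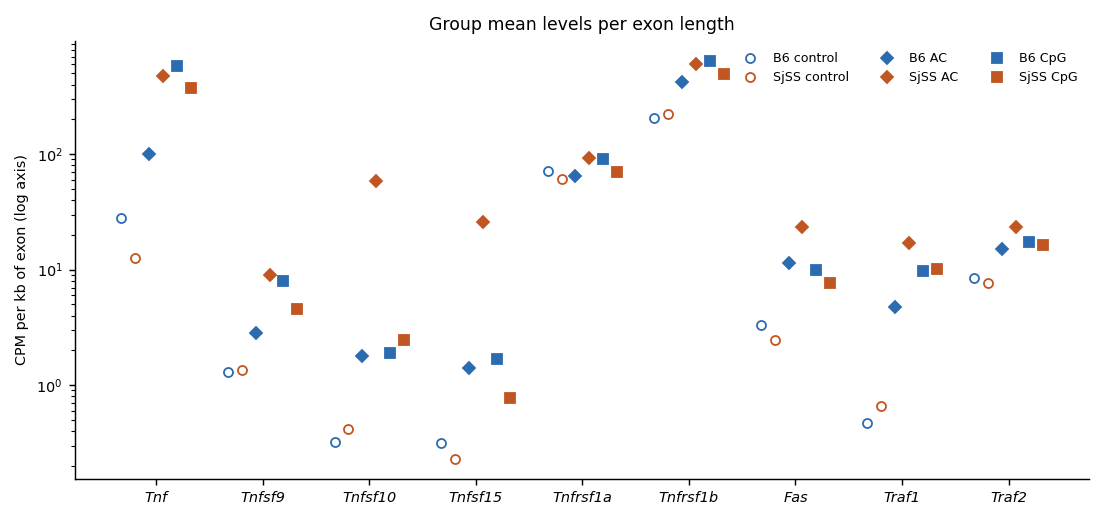
Group means in CPM per kilobase of exon (log axis), with B6 in blue, SjSS in orange and control, AC and CpG as open circles, diamonds and squares. Tnfrsf1b stays at the top at 205 to 645, while Tnfsf10 moves from 0.415 in control SjSS to 58.2 in AC treated SjSS samples.

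The other genes of the pathway numbered 78 (14 ligands, 25 receptors, 5 TRAFs and 34 signaling proteins), of which 75 were in the table and 68 were tested. After ACs 18 rose and 11 fell in B6 (26.5% and 16.2%, against 20.0% and 18.3% of all genes), and 37 rose and 16 fell in SjSS (54.4% and 23.5%, against 28.6% and 29.4%). Called higher were 5 in B6 and 16 in SjSS, where 2.43% and 7.09% of all genes were. By role, 24 of 34 signaling proteins rose in SjSS and 6 fell (70.6% and 17.6%). Of 19 receptors 6 rose and 7 fell (31.6% and 36.8%), shares near those of all genes, and of the few ligands and TRAFs tested 4 of 10 and 3 of 5 rose and 2 and 1 fell. The median log2 fold change of the 68 was 0.39 in SjSS and 0.03 in B6, below the medians of the 9 members, 3.24 and 1.78. That gap is no test of the members, which were chosen with earlier results of these data known. Cd40, a receptor that binds TRAFs and activates antigen presenting cells, rose most in SjSS, from 4.20 ± 0.97 to 273 ± 14.3 CPM (mean ± SD, n = 3), and from 6.19 ± 0.56 to 19.0 ± 3.30 CPM in B6. Daxx, first described as a Fas-binding protein, went from 44.1 ± 1.47 to 506 ± 8.65 CPM in SjSS (log2 fold change 3.52) and Tnfaip3, which encodes the NF-κB inhibitor A20, from 46.4 ± 8.15 to 460 ± 14.0 CPM (3.31). Relt fell by 1.70, Tnfrsf22 by 1.42 and Tnfrsf18, with 8 counts left over the 3 samples, by 2.14 on the log2 scale. In B6 the called genes that rose most were Tnfrsf9, the receptor of the 4-1BB ligand (2.55, with 9 counts in control and 50 in AC treated samples), Cd40 (1.62) and Tnfaip3 (1.47).

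The AC response differed between the strains for 39 of these 68 genes, with 29 larger and 10 smaller in SjSS (42.6% and 14.7%, against 19.6% and 18.3% of all genes). The 12 called were all larger in SjSS, where 4.76% of all genes were called larger. The genes with the largest differences were Cd40 (4.41 ± 0.20), Tnfsf8, the CD30 ligand (3.32 ± 0.72, from 262 counts in AC treated SjSS and 34 in AC treated B6), and Daxx (2.56 ± 0.15). In AC treated samples 34 were higher in SjSS and 14 lower (50% and 20.6%, against 24.0% and 25.5%). Of these, Cd40 was higher by 3.85, Tnfsf8 by 3.09 and Daxx by 2.70, and Tnfrsf18 was lower, at −1.59 (adjusted p = 0.0445). Without treatment 4 were higher and 12 lower in SjSS (5.88% and 17.6%, against 9.04% and 10.6%), and none was called.

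**Figure D5:**
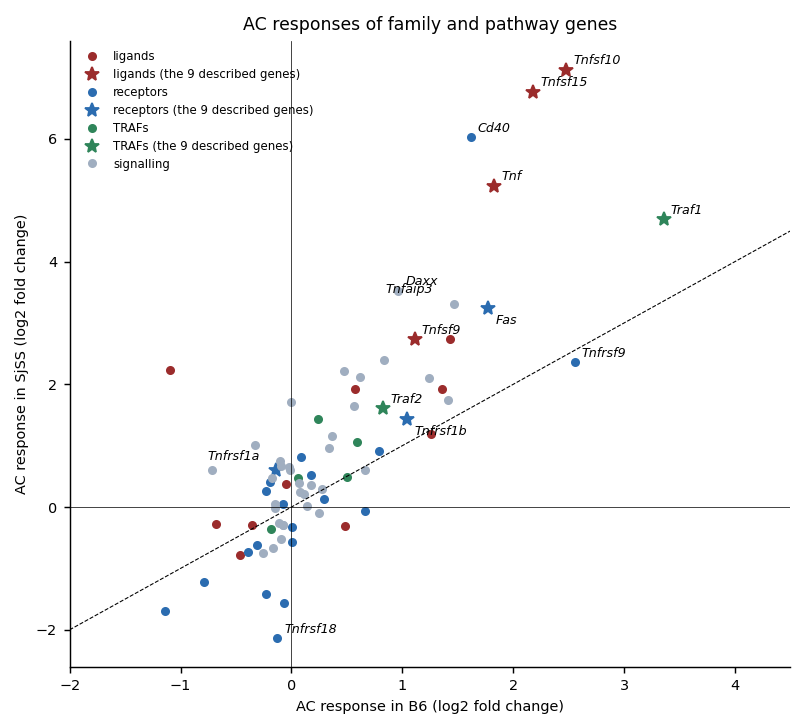
Log2 fold change after ACs in B6 (horizontal) and SjSS (vertical) for the 9 genes (stars) and the 68 other tested genes of the pathway (circles), colored by role, with the dashed line where both are equal. All 9 stars lie above the line, with Tnfsf10 at 7.13 in SjSS and 2.48 in B6, while the other genes lie on both sides of it.

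After CpG 26 of the 68 rose and 22 fell in B6 (38.2% and 32.4%, against 28.1% and 29.8% of all genes), and 29 rose and 23 fell in SjSS (42.6% and 33.8%, against 27.8% and 26.4%). In both strains Cd40 (3.45 in B6 and 3.12 in SjSS), Lta, which encodes lymphotoxin alpha (3.56 and 2.83, from 8 and 12 counts in control to 80 and 80 in CpG treated samples), and Tnfaip3 (2.68 and 2.76) rose most. Tnfsf14, the ligand known as LIGHT, fell by 3.18 in B6 and by 2.71 in SjSS, both called. The receptor genes Tnfrsf26 (−2.05 and −1.27) and Tnfrsf12a (−1.98 and −1.21) also fell in both strains, and were called in B6. The CpG response differed between the strains for 6 genes with a larger and 4 with a smaller response in SjSS (8.82% and 5.88%, against 3.23% and 2.62% of all genes), none of them called. In CpG treated samples 13 were higher and 13 lower in SjSS (19.1% each, against 10.2% and 9.57%). Tnfrsf11b, the decoy receptor osteoprotegerin, was the 1 gene called, higher by 1.57 ± 0.29 (adjusted p = 7.7e-04).

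Across the 18 samples, the genes whose log2 CPM was most like that of each member were looked up among all tested genes. They were Gpd2 and Cd82 for Tnf (Pearson's r of 0.995 and 0.992), Cmtr1 and Rrp7a for Tnfsf9 (0.980 and 0.979), Gm12250 and Ifih1 for Tnfsf10 (0.990 and 0.988) and Socs1 and Mlkl for Tnfsf15 (0.984 and 0.983). For the receptors they were D16Ertd472e and Mgat4a for Tnfrsf1a (0.933 and 0.931), Foxp4 and Adprh for Tnfrsf1b (both 0.992) and Slfn2 and Ezr for Fas (0.987 and 0.983). For the adaptors they were Camkk2 and Ust for Traf1 (0.990 and 0.980) and Tnfaip2 and Nfkb1 for Traf2 (both 0.991). Ifih1 encodes an RNA sensor of the interferon pathway, Socs1 an inhibitor of cytokine signaling and Nfkb1 an NF-κB subunit. These values are a description: all pairs share the same 6 groups, libraries and scaling, so that any genes with the same group pattern have a high r.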

How the data were processed

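Gene expression of the 18 BMDM samples was taken from 1 table of estimated counts. Per the labels and the study's methods, the authors aligned paired-end reads to mm10 with STAR, quantified genes by the E/M method of Partek Flow and deposited the estimated counts without normalization. The submitters' notes also name DESeq2 (3.13). Of the deposited values, 41.1% were not whole (tolerance 1e-06), and counts were rounded to whole numbers, as shared reads had been divided between genes. Rounding moved a member's count by at most 0.5. Groups were taken from the labels.

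Tests were run in R 4.3.3 (DESeq2 1.42.0, edgeR 4.0.16, limma 3.58.1), and figures were drawn with Python 3.11.15, pandas 2.3.3 and matplotlib 3.10.9. Genes were kept by filterByExpr, libraries scaled by TMM, and all 18 samples entered a single quasi-likelihood fit that had 1 mean per group, from which 9 comparisons were drawn. Within each comparison the Benjamini-Hochberg adjustment covered all 15789 genes tested. A gene passed the test at an adjusted p under 0.05 and was called if its log2 fold change was also over 1.3 in size. A standard error is the size of the log2 fold change divided by the square root of F. CPM used TMM scaled totals, and log2 CPM a prior count of 2. The difference between strains in a response was tested as an interaction.

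The text names the 9 members in every comparison, the 3 called genes of the family lists with the largest increase and the 3 with the largest decrease in each, where their groups did not overlap (for interactions, among all called), and the 2 genes most like each member. The members, lists and tests were chosen with earlier results of these data known. Alternatives were DESeq2's Wald test and size factors, no filter, a filter of 10 counts in 3 samples, a separate fit for the groups in question, a block for replicate number, omission of single samples and, chosen later, library totals alone. The pipeline was tested on simulated data. The end of a gene is 1 less than the stop in the deposited table, which lies 1 base past the GENCODE M21 end for 17524 of 19869 matched genes. Exon lengths are from that annotation and promoters from RefSeq.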

Additional observations from a re-analysis of the deposited data

Results flagged for a closer look

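The response to ACs differed between B6 and SjSS BMDMs for each of the 9 members by the test of the interaction, on the log2 scale by 3.41 for Tnf, 1.62 for Tnfsf9, 4.66 for Tnfsf10, 4.59 for Tnfsf15, 0.74 for Tnfrsf1a, 0.40 for Tnfrsf1b, 1.46 for Fas, 1.33 for Traf1 and 0.79 for Traf2, all larger in SjSS. The same test set apart Cd40 (4.41), Tnfsf8 (3.32) and Daxx (2.56). For CpG it set apart Tnfrsf1b, with a response smaller in SjSS (−0.49). The AC difference of Tnfrsf1b did not pass the test with library totals alone (0.06, adjusted p = 0.548). Groups of 3 samples were not tested for samples that stand apart.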

How the results depend on the processing

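The counts of members and of all genes called kept within 1.5 times their values under DESeq2's Wald test, its size factors, no filter, a filter of 10 counts in 3 samples, the compared groups only and the replicate block. With library totals alone, 3 members rather than 6 differed by over 1.3 in the AC response, while the median of all genes moved by −0.34, and the CpG difference of Traf2 between strains turned to 0.025, not past the test. For the difference in the CpG response, 2 members rather than 1 passed with the Wald test, the size factors and the replicate block, and all genes past the test numbered 923, but 549 with the compared groups only and 1451 with the block. With each sample left out in turn, members that passed ranged from 1 to 2 (2 without control replicate 1 of B6, control replicates 1 or 2 of SjSS or CpG replicate 3 of SjSS) and all genes from 551 (without CpG replicate 1 of SjSS) to 1095. For the strains without treatment, genes past the test ranged from 1964 to 2947 (3096 with all samples, 1964 without control replicate 2 of B6 and 2042 without control replicate 3 of SjSS), and members called from 0 to 1 (Tnf, without control replicate 2 of SjSS). For CpG treated strains members called ranged from 0 to 1 (Tnfsf15, without CpG replicate 3 of SjSS). For the difference in the AC response members called ranged from 5 to 6, with Traf1 (1.13 to 1.62) the member that crossed 1.3. The direction turned only in values near 0 that did not pass: the difference in the CpG response of Tnfsf10 (0.02) was −0.022 with the Wald test, −0.0042 with the size factors and −0.20 to 0.28 with a sample left out, that of Fas −0.046 to 0.12, the difference of Tnfsf9 without treatment −0.22 to 0.25 and that of Traf1 with CpG −0.0029 to 0.13.

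Same-number samples of a strain are not stated to share a mouse. The correlation of their deviations ran from 0.02 to 0.26 (median 0.09, over 0.1 in 9 of 18 pairs). For samples of other numbers it ran from −0.25 to 0.07 (median −0.05, over 0.1 in 0 of 36 pairs). Of 36 comparisons 32 had the highest value with the same number, so that same-number samples were more alike than others. The main fit did not use the number, and which mouse each number stands for is not given. The fit with the block did use it. With the replicate block within each strain, Tnfrsf1a also passed in the AC response of B6 (−0.14, adjusted p = 0.0488), as it did with the compared groups only (adjusted p = 0.0198) and with library totals alone (−0.21, adjusted p = 0.00534). The block was not run for the strains at each treatment, because no number joins samples of different strains. Other members that crossed the threshold in single settings were Traf1 without treatment (0.51, adjusted p = 0.0298, Wald test; 0.72, adjusted p = 0.0454, without control replicate 2 of B6), Tnfrsf1b without treatment (0.15, adjusted p = 0.0423, library totals), Traf2 without treatment (−0.25, adjusted p = 0.0123, without control replicate 2 of SjSS) and Tnfsf10 with CpG (0.59, adjusted p = 0.0117, without CpG replicate 2 of SjSS). The depth limits what can be said of Tnfsf9, Tnfsf10 and Tnfsf15 in control samples.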
